A study of Mus musculus with 16 samples.

Results

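The phagocyte NADPH oxidase is the enzyme with which neutrophils and macrophages make superoxide, and the genes described here are 5 of its subunits, Cybb, Cyba, Ncf1, Ncf4 and Rac2. They were chosen by name, and all 5 were present among the 20200 genes counted and among the 11998 genes tested. The counts came from bulk RNA-seq of cells sorted from the interface tissue of wild-type C57BL/6 mice (C57BL/6J in the methods) after anterior cruciate ligament reconstruction (ACLR), in which the ligament is replaced by a tendon graft drawn through bone tunnels. According to the methods the mice were male and 12 weeks old, and each library was a pool of several animals, so that replicates show the spread between pools. The mice of the study were too few for a separate pool behind each library, so libraries of different populations shared animals. All 16 libraries came from operated knees, and no unoperated tissue is included.

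The sorted populations, all live, lineage-negative and CD45+, numbered 4 and were compared on postoperative day (POD) 1 and POD 14, with 2 libraries in each of the 8 groups. CD9+ macrophages were Ly6G-, CD11b+, F4/80+ and CD9+. CX3CR1+ macrophages were F4/80+ and CX3CR1+ but CD9-. The F4/80- myeloid cells were Ly6G- and CD11b+, and the neutrophils were Ly6G+. The libraries held 10587857 to 19814119 counts on POD 1 and 9233952 to 12721779 on POD 14, and the lowest count of any member in any library was 1290.

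Of the sort markers, the F4/80 gene Adgre1 averaged 139 to 180 CPM (the count relative to library size, with TMM scaling) in both macrophage populations and 9.02 to 11.1 CPM in F4/80- cells, and Cx3cr1 was highest in CX3CR1+ macrophages. Ly6g averaged 103 CPM in neutrophils on POD 1 and 276 CPM on POD 14 against at most 9.14 CPM in any other group. Cd9 averaged 148 to 162 CPM in CD9+ and 6.54 to 19.7 CPM in CX3CR1+ macrophages but 345 to 674 CPM in neutrophils, whose gate did not use it. The F4/80- cells had low Ly6g yet much Ngp, a secondary granule gene of neutrophil precursors, at 12143 CPM on POD 1. The 2 libraries of CD9+ macrophages on POD 1 stood apart from each other, with a correlation of log2 CPM of 0.93 against 0.98 to 0.99 in the other groups.

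The oxidase is assembled on demand. Its membrane part, flavocytochrome b558, pairs gp91phox, encoded by Cybb and carrying the electron transport chain, with p22phox, encoded by Cyba, which stabilizes gp91phox and is the docking site for the cytosolic part. On activation p47phox (Ncf1), the organizer, moves to the membrane with other cytosolic subunits, among them p40phox (Ncf4), which binds phagosomal lipid, and the GTPase Rac2 joins them. Loss of Cybb, Cyba or Ncf1 is among the causes of chronic granulomatous disease, whereas defects of Rac2 cause a different neutrophil immunodeficiency. Rac2 is the Rac protein of blood cells while Rac1 is made in most cell types.

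In mm10 Cybb lay on chromosome X (9435252 to 9487771, minus strand), Cyba on chromosome 8 (122424776 to 122432930, minus strand) and Ncf1 on chromosome 5 (134220053 to 134229625, minus strand). Ncf4 (78244801 to 78262580, plus strand) and Rac2 (78559167 to 78572783, minus strand) shared chromosome 15 with 296586 bases between them. Ncf1 shared 408 exonic bases with Gtf2ird2 on the opposite strand, and the strand setting of the authors' counting is not stated, so those bases could not be assigned.

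RefSeq promoter sequences matched 3 of the 5 members. The 150 bases before the RefSeq transcription start are shown for these 3, Cybb, Cyba and Ncf1 (GRCm38.p6). For Cybb this start lay inside the gene span given above, whose upstream end on the minus strand was 9487771. All 3 stretches read 5′ to 3′ on the gene's own minus strand, with CCAAT boxes and GC boxes (GGGCGG or its reverse complement) in capitals.
Cybb, chrX:9469325-9469474: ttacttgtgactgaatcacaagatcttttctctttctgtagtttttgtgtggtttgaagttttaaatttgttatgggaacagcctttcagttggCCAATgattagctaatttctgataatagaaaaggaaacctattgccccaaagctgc
Cyba, chr8:122432941-122433090: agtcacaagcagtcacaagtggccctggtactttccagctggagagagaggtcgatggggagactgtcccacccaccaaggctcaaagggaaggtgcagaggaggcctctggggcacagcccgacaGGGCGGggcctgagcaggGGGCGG
Ncf1, chr5:134229626-134229775: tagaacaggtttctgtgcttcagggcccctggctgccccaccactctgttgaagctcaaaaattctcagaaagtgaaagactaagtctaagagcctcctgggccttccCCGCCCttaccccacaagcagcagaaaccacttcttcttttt

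Motifs were searched on both strands from 250 bases before to 50 after the start. The CCAAT box, found in Cybb alone of the 3, was present in 37.4% of all 32851 promoters of the same length. The GC box occurred 2 times in Cyba and 1 time in Ncf1, and in 35.7% of all promoters. A match to the composite ETS and interferon regulatory factor element lay at bases 4 to 13 from the RefSeq start of Cybb, reading TTTCATTTCC on the coding strand. It overlapped a match to GAGGAA, an ETS core, on the same other strand. The composite element was present in 2.72% of all promoters and GAGGAA in 28.3%, and neither was in the windows of Cyba and Ncf1. TATAA, in 24.9% of promoters, was in none of the 3 windows. These are matches of letters in one window, and binding was not measured.

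All 5 subunits were abundant in every population. Divided by transcript length, the 40 group means of the members lay between the 95.5th and 99.6th percentile of the genes tested in their group. On this per-length scale Ncf1 was the most abundant member in neutrophils, at 849 CPM per kb on POD 1 and 942 on POD 14. Cyba led in CD9+ macrophages on both days, at 365 and 359 CPM per kb, and in CX3CR1+ macrophages on POD 1. Cybb led in CX3CR1+ macrophages on POD 14, at 380 CPM per kb.

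**Figure D1:**
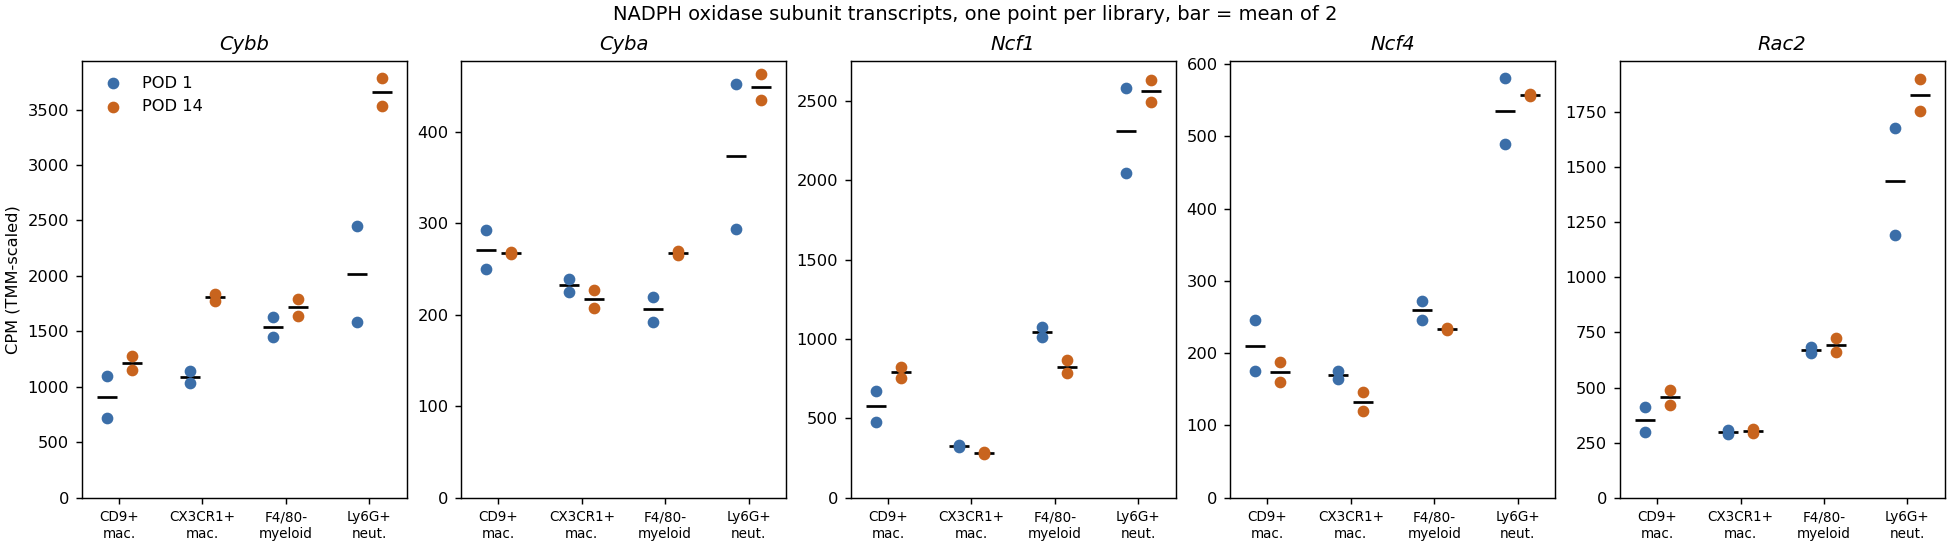
Each panel plots one subunit in CPM scaled by TMM factors (vertical axis, from 0, own scale) in the 4 sorted populations on POD 1 (blue) and POD 14 (orange), with one point for each of 2 libraries and a bar at their mean. Neutrophils had the highest mean of every subunit on both days, and Ncf1 in CX3CR1+ macrophages sat lowest relative to them, at 273 to 332 CPM against 2043 to 2633 CPM.

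Cybb, the catalytic subunit, was measured at 2454 and 1582 CPM in the neutrophil libraries of POD 1 and at 3532 and 3784 CPM in those of POD 14. CX3CR1+ macrophages held 1039 and 1144 CPM on POD 1 and 1776 and 1835 CPM on POD 14. F4/80- cells held 1630 and 1446 CPM, then 1643 and 1790 CPM, while CD9+ macrophages held 1097 and 715 CPM, then 1274 and 1150 CPM. On POD 1 the neutrophil and F4/80- libraries overlapped, as did those of the macrophage populations, and no neighbouring pair in the order passed the test. On POD 14 the neutrophil libraries stood clear of all others, whereas CX3CR1+ macrophages and F4/80- cells overlapped (log2 difference 0.07, 95% interval -0.36 to 0.51).

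Cyba, the partner of Cybb in the membrane, varied least, its highest group mean being 2.18 times its lowest. Neutrophils held 452 and 294 CPM on POD 1 and 435 and 463 CPM on POD 14. The other 12 libraries lay between 192 and 293 CPM, and none of the neighbouring pairs among those 3 populations passed the test on either day.

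Ncf1, the organizer, varied most, by 9.19-fold between group means. The neutrophil libraries gave 2579 and 2043 CPM, then 2496 and 2633 CPM. F4/80- cells gave 1078 and 1011 CPM, then 786 and 866 CPM, and CD9+ macrophages 674 and 477 CPM, then 825 and 754 CPM. CX3CR1+ macrophages gave 318 and 332 CPM on POD 1 and 273 and 285 CPM on POD 14, below every library of the other populations. On POD 14 CD9+ macrophages and F4/80- cells overlapped (log2 difference -0.06, 95% interval -0.41 to 0.28).

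Ncf4, which tunes the oxidase at the phagosome, was 489 to 581 CPM in the 4 neutrophil libraries, 233 to 272 CPM in F4/80- cells, 160 to 245 CPM in CD9+ and 119 to 176 CPM in CX3CR1+ macrophages. Rac2, the haematopoietic Rac GTPase, was 1194 to 1900 CPM in neutrophils, 657 to 726 CPM in F4/80- cells, 296 to 491 CPM in CD9+ and 288 to 313 CPM in CX3CR1+ macrophages. Both genes followed the order of Ncf1, neutrophils first and CX3CR1+ macrophages last. On POD 1 the libraries of the macrophage populations overlapped for Ncf4 and Rac2.

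Over the 8 group means, Pearson's r of log2 CPM was 0.95 to 0.97 among Ncf1, Ncf4 and Rac2. It was 0.65 to 0.80 between Cybb and each of these 3, 0.80 to 0.85 between Cyba and each of them, and 0.66 between Cybb and Cyba. These values describe 8 points that share libraries and scaling factors, and they carry no test. By the same measure, the tested genes closest to Ncf1 were Msra, Dab2ip and Bmpr1a (r = 0.99 to 1.00), and 0610030E20Rik and Mettl9 were among the 3 closest to Rac2. Rnf20, Tirap and Mon2 were closest to Ncf4, Dock11, Hhex and Crot to Cybb (0.99 each), and Zfp688, Slc25a11 and Trir to Cyba (0.98 each). Ranked instead by Spearman's rank correlation over the 16 libraries, at most 1 of the 3 genes was kept for any member.

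Whether the populations differed was tested with edgeR's quasi-likelihood test on all 11998 genes, calling a gene differentially expressed (DEG) at a Benjamini-Hochberg adjusted p under 0.05 and at least a 2-fold change. On POD 1, 12 of 30 member comparisons between populations met these criteria, and on POD 14, 16 of 30 did. By adjusted p alone 21 of 30 passed on each day. DESeq2 also called 12 and 16. All member DEGs involving neutrophils were lower in the other population. Many other genes were called too, and shares of all genes are given below for each pair. In CD9+ macrophages against neutrophils, 21.7% of all genes were lower and 27.9% higher DEGs on POD 1. On POD 14 these shares were 19.9% and 29.6%. Against F4/80- cells, 15.4% and 7.70% were DEGs in either direction on POD 1 and POD 14.

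Of the 4 populations, CX3CR1+ macrophages had the lowest group means of Ncf1, Ncf4 and Rac2 on both days, whereas the mean of Cybb was lowest in CD9+ macrophages. Against neutrophils 3 of 5 members were lower DEGs in CX3CR1+ macrophages on POD 1 (24.1% of all genes were), and on POD 14 5 of 5 were (20.9% of all genes). Ncf1 was lower by a log2 fold change of -2.83 (SE 0.17, adjusted p = 2.28e-09) and -3.20 (SE 0.17, adjusted p = 5.63e-10), a 7.11-fold and a 9.19-fold difference. Rac2 was 4.80-fold and 6.03-fold lower, and Ncf4 3.15-fold and 4.21-fold lower. For the flavocytochrome the log2 fold changes were smaller, -0.89 and -1.02 for Cybb and -0.68 and -1.05 for Cyba, and those of POD 1 were under the 2-fold criterion although their adjusted p was 0.00136 and 0.00173. By adjusted p alone 5 of 5 members were lower on each day, against 34.8% and 31.5% of all genes.

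CD9+ macrophages had 4 of 5 members lower than neutrophils as DEGs on each day, with backgrounds of 21.7% and 19.9% of all genes. Rac2 was 4.05-fold and 4.01-fold lower, and log2 fold changes were, for Ncf1, -2.01 and -1.70, for Ncf4 -1.35 and -1.68 and for Cybb -1.16 and -1.59 (edgeR adjusted p at most 0.000162). Cyba was the exception at -0.46 and -0.75, which passed on adjusted p alone (0.0214 and 0.000898), so that 5 of 5 were lower by that rule against 33.7% and 31.6% of all genes. The median over the 5 members was -1.35 on POD 1 and -1.68 on POD 14, where the median of all genes was 0.06 and 0.12.

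In F4/80- myeloid cells the group means of Ncf1, Ncf4 and Rac2 lay between those of the macrophages and the neutrophils on both days, though Ncf1 overlapped with CD9+ macrophages on POD 14. Those of the flavocytochrome did not all do so, as Cyba on POD 1 was lowest in F4/80- cells, at 206 CPM, and Cybb on POD 14 averaged 1716 CPM against 1806 CPM in CX3CR1+ macrophages. On POD 1 Ncf1 (-1.15), Ncf4 (-1.05) and Rac2 (-1.10) were lower DEGs than in neutrophils, 3 of 5 members against 22.6% of all genes. On POD 14 Cybb (-1.09) joined them, 4 of 5 against 21.3%, and Cyba was at -0.75. By adjusted p alone 4 and 5 members were lower, against 34.8% and 33.3% of all genes. Cybb on POD 1 did not pass, at a log2 fold change of -0.39 (95% interval -0.83 to 0.05, adjusted p = 0.102).

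Calls near 2-fold depended on the scaling, the gene filter and single libraries. Scaling by library size alone moved the median of all genes in the neutrophil comparisons by 0.33 to 0.61 on the log2 scale, and F4/80- cells against neutrophils then had no member past 2-fold on POD 1 (Ncf1 -0.54) and only Ncf1 on POD 14 (-1.07), while the sign for Cybb on POD 1 turned (0.22). Ncf1, Ncf4 and Rac2 in F4/80- cells on POD 1 also fell short with upper quartile scaling (-0.84, -0.74 and -0.79) and with a filter requiring 3 CPM in every group (-0.84, -0.75 and -0.79). Cybb and Cyba in CX3CR1+ macrophages on POD 14 fell short under both as well (Cybb -0.80 in each, Cyba -0.83 in each), and with library size scaling (-0.51 and -0.54). Cybb in CD9+ macrophages on POD 1 fell short under all 3 (-0.81 with library size scaling, -0.94 with upper quartile scaling and -0.91 with the filter), as did Cybb in F4/80- cells on POD 14 (-0.53, -0.85 and -0.78), and Ncf4 in F4/80- cells on POD 14 under the first and the last (-0.69 and -0.94). Other filters or fits left Ncf4 and Rac2 in F4/80- cells on POD 1, Cybb and Cyba in CX3CR1+ macrophages and Cybb in F4/80- cells on POD 14 just under 2-fold in some cases, at -0.91 or beyond. Without neutrophil replicate 1 of POD 1, Ncf1, Ncf4 and Rac2 in F4/80- cells (-0.96, -0.91 and -0.82) and Cybb in CD9+ macrophages (-0.79) missed 2-fold on POD 1, and the count of that day was 8 of 30. Cybb in CD9+ macrophages also missed it without CD9+ replicate 2 of POD 1 (-0.88), and Ncf4 in F4/80- cells without their replicate 2 of POD 1 (-0.92). On POD 14 Cybb in CX3CR1+ macrophages missed it without their replicate 1 or neutrophil replicate 2 (-0.97 in each case), Cyba without CX3CR1+ replicate 2 (-0.95) and Cybb in F4/80- cells without their replicate 1 (-0.995). Ncf1, Ncf4 and Rac2 in both macrophage populations against neutrophils were DEGs on both days under every alternative run.

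**Figure D2:**
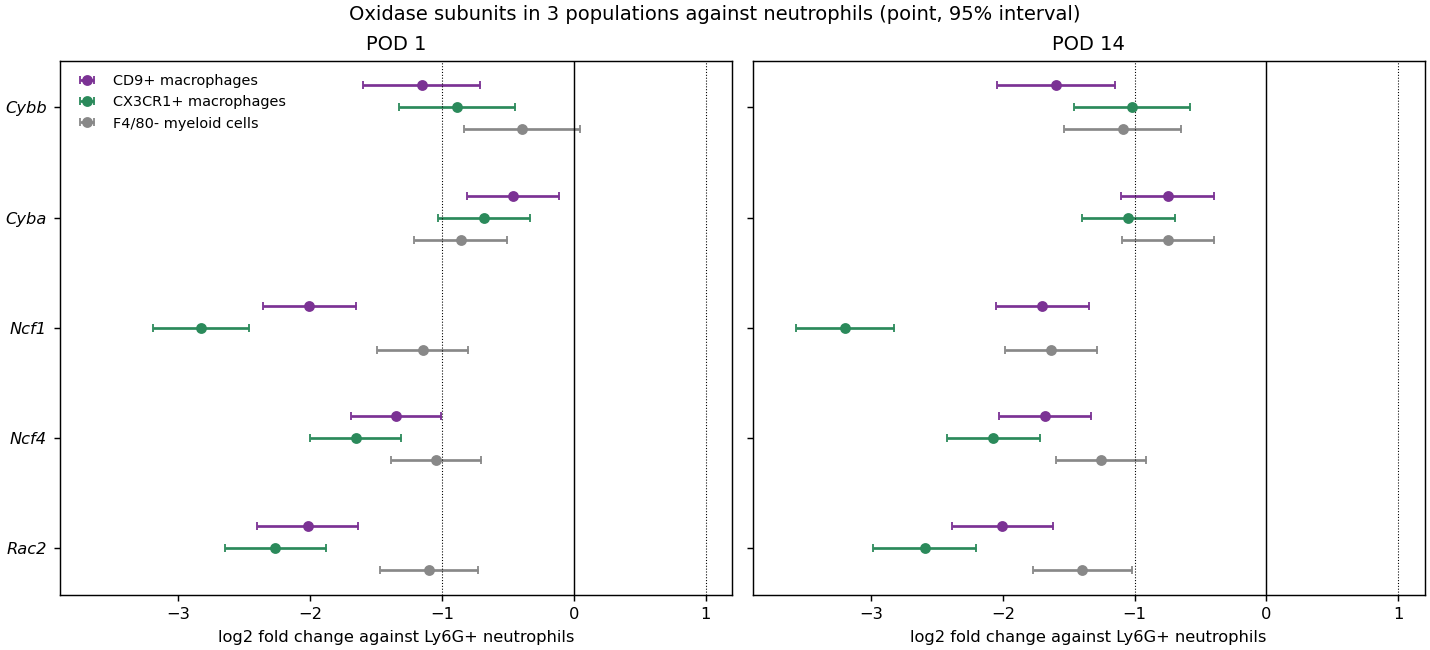
Points are log2 fold changes (horizontal axis) of the 5 subunits against Ly6G+ neutrophils on POD 1 (left) and POD 14 (right). CD9+ macrophages are purple, CX3CR1+ macrophages green and F4/80- myeloid cells grey, with 2 libraries a group. Dotted lines mark a 2-fold change. The 95% intervals use a spread estimated for each gene over all 16 libraries. The largest differences were those of Ncf1 in CX3CR1+ macrophages, at -2.83 and -3.20, and all 30 points lay below 0.

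The macrophage populations differed most in Ncf1. On POD 14 CD9+ macrophages held 2.83-fold more Ncf1 than CX3CR1+ macrophages (SE 0.16 on the log2 scale, adjusted p = 6.59e-06). It was the only higher DEG of the 5 members (9.65% of all genes were higher DEGs), and no member was a lower DEG. On POD 1 the Ncf1 difference was 1.77-fold (log2 0.82, SE 0.16, adjusted p = 0.00282), short of the 2-fold criterion. None of the 5 was a higher DEG (6.36% of all genes were), and none was a lower DEG. Rac2 on POD 14 was also higher in CD9+ macrophages by adjusted p alone (log2 0.59, SE 0.17, adjusted p = 0.0205). By that rule 1 of 5 members was higher on POD 1 and 2 of 5 on POD 14, against 10.4% and 14.5% of all genes. Cybb pointed the other way on POD 14, at -0.58 (95% interval -1.01 to -0.14, adjusted p = 0.0513), which missed the threshold. Without CD9+ replicate 2 of POD 1 the Ncf1 difference of that day was 1.05 and met both criteria, and without CD9+ replicate 1 it was 0.55.

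The sum of neutrophil markers also differed between the populations. The summed CPM of 13 neutrophil markers was 5802 and 18769 in the CD9+ libraries of POD 1 and 13925 to 20744 in those of POD 14, against 514 to 1108 in CX3CR1+ macrophages, 33571 to 43587 in F4/80- cells and 58046 to 122547 in neutrophils. No marker was at 3 counts or fewer in any neutrophil or F4/80- library. Within the list the genes did not move together. Ngp averaged 6238 CPM in CD9+ and 49.3 CPM in CX3CR1+ macrophages on POD 14, whereas Csf3r, the G-CSF receptor, averaged 106 and 235 CPM, and Ly6g was at 0.105 and 1.90 CPM in the CD9+ libraries of POD 1 (1 and 27 counts) and at 2.63 to 4.97 CPM on POD 14. Of the CD9+ libraries of POD 1, the one with the higher marker sum also held more of all 5 members, from 1.17-fold for Cyba to 1.53-fold for Cybb. In these bulk samples a difference in the share of a cell type and a difference in RNA per cell cannot be told apart, and the part of neutrophil transcripts in the Ncf1 difference was not tested.

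**Figure D3:**
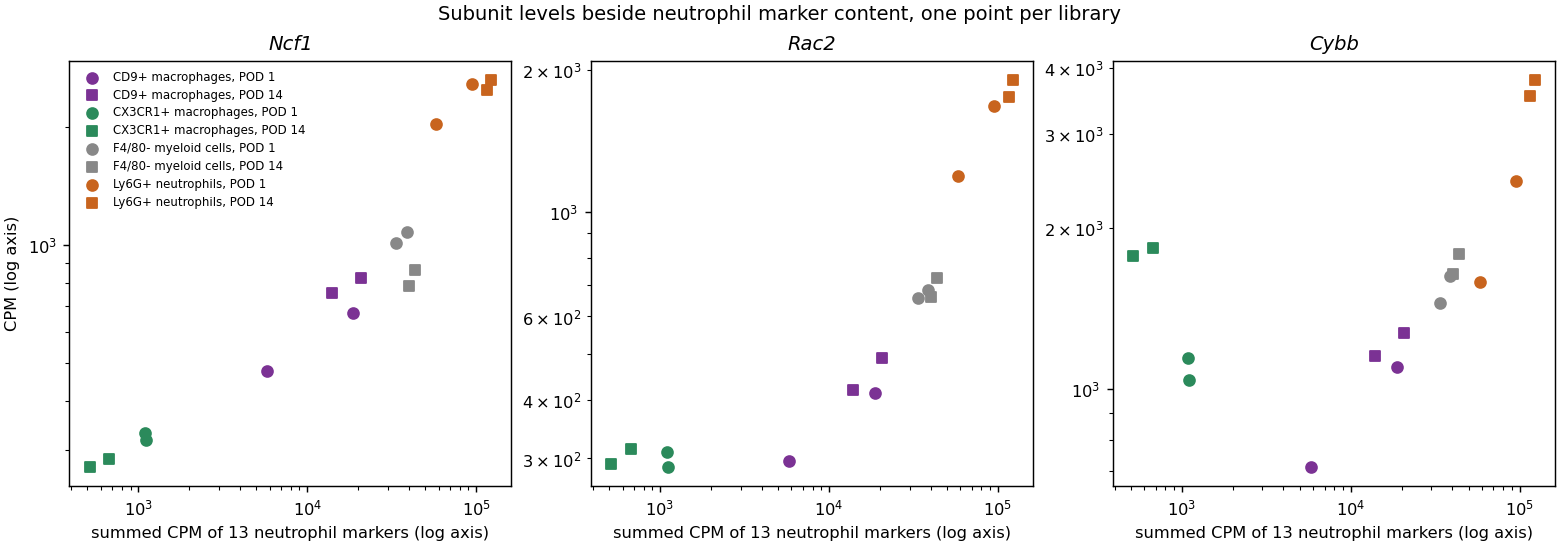
Each point is one of 16 libraries, placed by the summed CPM of 13 neutrophil markers (horizontal, log axis) and the CPM of Ncf1, Rac2 or Cybb (vertical, log axis), with circles for POD 1, squares for POD 14 and a colour for each population. Ncf1 was lowest in the 4 CX3CR1+ libraries, which had the lowest marker sums, while Cybb in CX3CR1+ macrophages of POD 14 reached 1776 to 1835 CPM at marker sums of 514 to 672.

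Against F4/80- cells, CX3CR1+ macrophages had lower Ncf1 and Rac2 on both days, 2 of 5 members as lower DEGs (10.9% of all genes on POD 1, 10.4% on POD 14). Ncf1 was 3.21-fold and 2.96-fold lower (log2 -1.68 and -1.57), and Rac2 2.24-fold and 2.29-fold lower (log2 -1.17 and -1.19, edgeR adjusted p at most 8.19e-05). Ncf4 was lower by adjusted p alone (-0.61 and -0.82), making 3 of 5 on each day against 18.4% and 17.4% of all genes. CD9+ macrophages showed no DEG among the 5 against F4/80- cells on either day, where 15.4% and 7.70% of all genes were called in either direction. By adjusted p alone Cybb (-0.76), Ncf1 (-0.86) and Rac2 (-0.92) were lower on POD 1 (12.4% of all genes) and Rac2 (-0.61) on POD 14 (3.31%). Without CD9+ replicate 1 of POD 1 those 3 became DEGs (-1.11, -1.14 and -1.18), as they did with library size scaling (-1.02, -1.13 and -1.19), and Rac2 did with upper quartile scaling (-1.01).

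Within a library the balance of the subunits differed between populations. The ratio of Ncf1 to Cybb per kb of transcript was 1.84 and 2.26 in neutrophils on POD 1 and 1.22 to 1.23 on POD 14, and 1.07 to 1.16 in CD9+ macrophages over both days. In CX3CR1+ macrophages it was 0.507 and 0.535 on POD 1 and 0.268 and 0.272 on POD 14, lower than in every other library. These ratios do not depend on the scaling of libraries, and with 2 libraries a group they were not tested.

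Rac2 and its close relative Rac1, which is expressed in most cell types, were also balanced differently. Per kb of transcript, Rac2 exceeded Rac1 by 3.95 to 7.32 times in neutrophils and 3.43 to 4.76 times in F4/80- cells. In CD9+ macrophages the ratio was 1.49 to 2.35, and in CX3CR1+ macrophages 1.34 to 1.37 on POD 1 and 1.01 to 1.13 on POD 14, close to equal amounts. Rac1 itself was higher in CX3CR1+ than in CD9+ macrophages on POD 14 by adjusted p alone (CD9+ minus CX3CR1+ -0.48, SE 0.11, adjusted p = 0.00576), while Rac2 was lower.

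**Figure D4:**
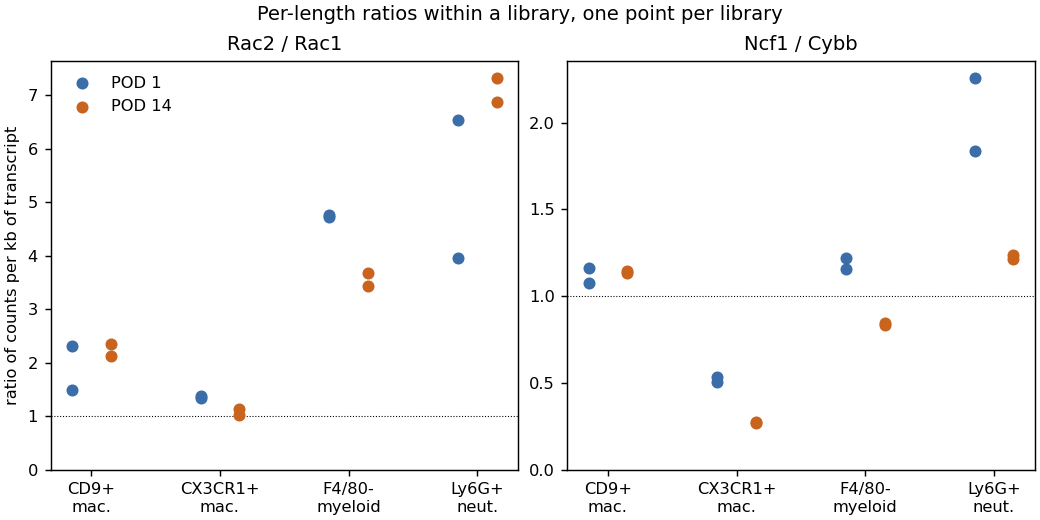
Ratios of read counts per kb of transcript (vertical axis, from 0) within each library are plotted for Rac2 over Rac1 and Ncf1 over Cybb, with one point a library, POD 1 in blue, POD 14 in orange and a dotted line at equal amounts. CX3CR1+ macrophages had the lowest ratios in both panels, for Ncf1 over Cybb 0.268 to 0.535.

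Over time none of the 20 member comparisons was a DEG, in a setting where 8.23% of all genes were in CD9+ macrophages, 5.86% in CX3CR1+ macrophages, 3.25% in F4/80- cells and 14.1% in neutrophils. DESeq2 gave 0 as well. An unadjusted edgeR p under 0.05 was seen in 5 of 20, a count that has no share of all genes to set it against. The 95% intervals reached at most 0.44 to either side of the log2 fold change.

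Cybb was the exception by adjusted p alone. In neutrophils it was 1.81-fold higher on POD 14 than on POD 1 (log2 0.86, SE 0.21, adjusted p = 0.00604), and in CX3CR1+ macrophages 1.65-fold higher (log2 0.73, SE 0.21, adjusted p = 0.0304). By adjusted p alone 11.5% and 6.54% of all genes were higher, and in CD9+ macrophages and F4/80- cells, where no member passed, 8.46% and 2.44% were. Cybb was at 0.42 in CD9+ macrophages (95% interval -0.02 to 0.86) and at 0.16 in F4/80- cells (-0.28 to 0.60), and neither passed. Neutrophil replicate 2 of POD 1 mattered to the first of these: without it the log2 fold change was 0.57 (adjusted p = 0.0661), and without replicate 1 of that day it was 1.21 and a DEG (adjusted p = 0.00103). In CX3CR1+ macrophages the value stayed at 0.66 to 0.79 without any 1 of the 4 libraries, but the adjusted p was then 0.110 to 0.186.

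Marker sums also differed between the days. The summed CPM of 13 macrophage and monocyte markers was 3062 and 3276 in the neutrophil libraries of POD 1 and 799 and 802 in those of POD 14, where the neutrophil marker sums were 58046 and 95095, then 115929 and 122547. In CX3CR1+ macrophages the macrophage and monocyte sum was 4320 and 4596 on POD 1 and 3741 and 4032 on POD 14. It was 2977 and 3992, then 1965 and 2699 in CD9+ macrophages and 868 to 950 in the 4 F4/80- libraries. At most 3 of the 13 genes were at 3 counts or fewer in any library. The part of these transcripts in the change of Cybb was not tested.

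Ncf1 was at 0.46 in CD9+ macrophages (95% interval 0.11 to 0.80, adjusted p = 0.0635), -0.22 in CX3CR1+ macrophages, -0.34 in F4/80- cells and 0.15 in neutrophils. Ncf4 lay between -0.36 and 0.06, Rac2 between 0.02 and 0.36 and Cyba between -0.10 and 0.38 over the 4 populations, all with an adjusted p of at least 0.15. The change of Ncf1 in CD9+ macrophages minus that in F4/80- cells was 0.80 (SE 0.23, adjusted p = 0.0962), and minus that in CX3CR1+ macrophages it was 0.68 (SE 0.23, adjusted p = 0.140). None of the 30 such differences among the members passed with edgeR or DESeq2. An unadjusted edgeR p under 0.05 was seen in 4 of 30, again without a share of all genes at that rule. Of all genes, 2.28% were DEGs for CD9+ against CX3CR1+ macrophages (2.84% by adjusted p alone), 1.69% against F4/80- cells (2.01%) and 8.03% against neutrophils (11.2%). For CX3CR1+ macrophages the shares were 1.01% against F4/80- cells (1.17%) and 9.09% against neutrophils (12.3%), and for F4/80- cells against neutrophils 7.73% (10.8%). Without CD9+ replicate 1 of POD 1 the first Ncf1 difference was 1.07 (adjusted p = 0.00349), and without neutrophil replicate 1 of POD 1 the change of Cybb in F4/80- cells minus that in neutrophils was -1.06 (adjusted p = 0.0193).

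**Figure D5:**
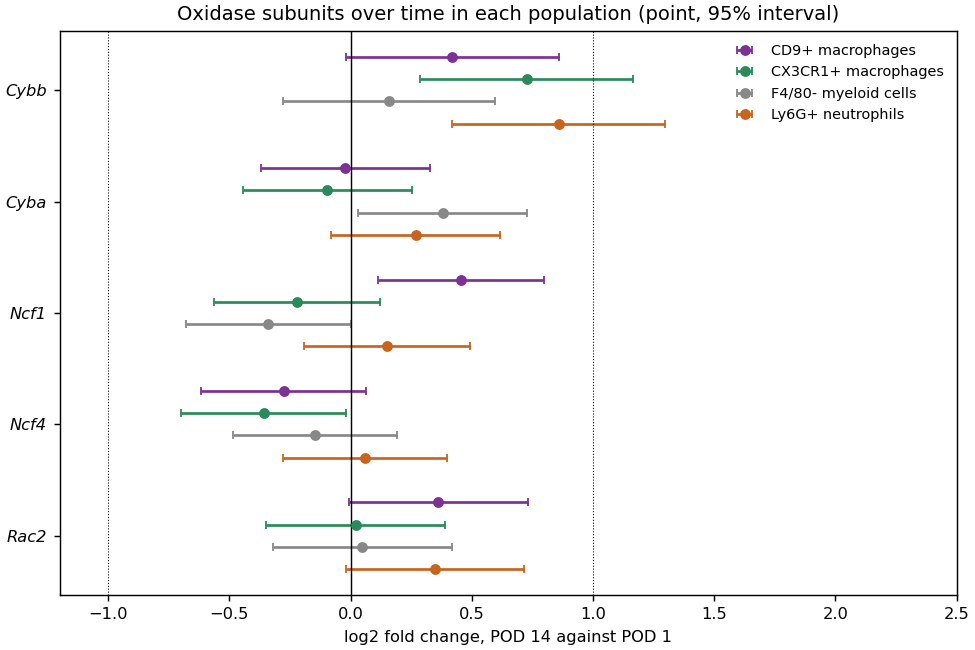
Points are log2 fold changes of POD 14 against POD 1 (horizontal axis) for each subunit in the 4 populations, with 2 libraries a group. Dotted lines mark a 2-fold change. The 95% intervals use a spread estimated for each gene over all 16 libraries. All 20 points lay inside the dotted lines, and the intervals of Cybb in CX3CR1+ macrophages (0.29 to 1.17) and neutrophils (0.42 to 1.30) lay above 0. Those of Cyba in F4/80- cells and Ncf1 in CD9+ macrophages also lay above 0 but did not pass after adjustment. That of Ncf4 in CX3CR1+ macrophages (-0.70 to -0.02) lay below 0 and did not pass either.

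Among the other partners and relatives of the oxidase, 7 of 15 listed genes were tested, and none was a DEG over time in any population, where 3.25% to 14.1% of all genes were. Hvcn1, the proton channel that carries charge out to balance the electrons moved by the oxidase, was 5.02-fold higher in CD9+ than in CX3CR1+ macrophages on POD 1 (adjusted p = 2.05e-06) and 5.97-fold higher on POD 14 (adjusted p = 2.77e-07). It was the 1 higher DEG of the list in that comparison on each day, where 6.36% and 9.65% of all genes were higher DEGs. No gene of the list was a lower DEG there. Rhog, another small GTPase, was 3.79-fold and 3.07-fold lower in CD9+ macrophages than in neutrophils.

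Some receptors that trigger the oxidase changed over time. Of 9 receptors tested, 2 were lower DEGs on POD 14 in CD9+ macrophages (3.48% of all genes were lower DEGs), 2 in CX3CR1+ macrophages (3.47%), 2 in F4/80- cells (2.24%) and 1 in neutrophils (10.9%), and none was higher. Fpr1, a receptor for bacterial formyl peptides, fell from 17.5 to 2.14 CPM in CD9+ macrophages, from 10.2 to 2.67 CPM in CX3CR1+ macrophages and from 29.2 to 1.09 CPM in F4/80- cells. C5ar1, the receptor for the complement fragment C5a, fell from 95.5 to 11.6 CPM in CX3CR1+ macrophages (log2 -3.04, SE 0.17, adjusted p = 4.90e-08) and from 117 to 48.7 CPM in CD9+ macrophages. Fpr2 fell 2.53-fold in F4/80- cells, and Ptafr, the platelet-activating factor receptor, 2.99-fold in neutrophils. Between populations 7 of 9 receptors on POD 1 and 9 of 9 on POD 14 were lower DEGs in CD9+ macrophages than in neutrophils (21.7% and 19.9% of all genes were), Fpr1 at 2.14 against 336 CPM on POD 14. Clec7a, the beta-glucan receptor Dectin-1, was 3.61-fold lower in CD9+ than in CX3CR1+ macrophages on POD 14, and C5ar1 was 4.21-fold and Ltb4r1 2.35-fold higher.

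Of 18 activating kinases, exchange factors and regulators of GTPases, 8 were lower and 2 higher DEGs in CD9+ macrophages than in neutrophils on POD 1 (21.7% of all genes were lower and 27.9% higher), and 10 lower and 1 higher on POD 14 (19.9% lower and 29.6% higher). Rasgrp4, an exchange factor of the Ras family, was 5.98-fold and 8.89-fold lower, and Arhgap25, which switches Rac off, 3.54-fold and 3.88-fold lower. Tiam1, a Rac exchange factor, was 2.33-fold higher in CD9+ macrophages on POD 1. Prkca, a protein kinase C, was the 1 DEG of the list over time, rising from 8.70 to 32.3 CPM in CD9+ macrophages (adjusted p = 0.0115), where 8.23% of all genes were DEGs, and it averaged at most 0.660 CPM in neutrophils and 0.364 CPM in CX3CR1+ macrophages.

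The oxidase draws on NADPH, and 8 of 9 genes of its supply were tested. In CD9+ macrophages against neutrophils 3 were lower and 3 higher DEGs on POD 1, against 21.7% and 27.9% of all genes, and 4 lower and 1 higher on POD 14, against 19.9% and 29.6%. The pentose phosphate enzymes G6pdx (306 against 766 CPM on POD 1, and 3.61-fold on POD 14) and Pgd (3.63-fold on POD 14) were lower, as was Taldo1 (2.39-fold on POD 1), whereas Idh2, the mitochondrial isocitrate dehydrogenase, was higher at 61.5 against 5.93 CPM and 58.4 against 2.29 CPM. Over time Pgls rose 2.23-fold in F4/80- cells and 2.41-fold in neutrophils, and Idh2 fell in neutrophils. Pgls was also higher in CD9+ macrophages than in neutrophils on POD 1 (2.35-fold), and Idh1 was 2.23-fold lower in CD9+ than in CX3CR1+ macrophages on POD 14.

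Genes that handle superoxide and peroxide went both ways. Of 22 tested, 9 were higher and 4 lower in CD9+ macrophages than in neutrophils on POD 1, and 12 higher and 5 lower on POD 14. Of all genes 27.9% were higher and 21.7% lower DEGs on POD 1, and 29.6% and 19.9% on POD 14. The list medians were 0.51 and 1.05 on the log2 scale, with 0.06 and 0.12 over all genes. Prdx5 was 3.35-fold and 3.88-fold lower, and Prdx4 was at 11.8 against 0.923 CPM and 14.2 against 0.376 CPM. Sod2, the mitochondrial superoxide dismutase, fell from 254 to 26.0 CPM in neutrophils between POD 1 and POD 14 (log2 -3.29, SE 0.22, adjusted p = 5.85e-08) and was 3.27-fold lower in CD9+ macrophages than in neutrophils on POD 1. Srxn1 fell in CX3CR1+ macrophages, F4/80- cells and neutrophils by 3.26-fold, 3.19-fold and 3.87-fold, and Gpx3 fell 2.21-fold in CX3CR1+ macrophages. Nqo1 was low throughout, at 3.38 CPM in CD9+ against 0.550 CPM in CX3CR1+ macrophages on POD 1.

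The peroxidases of granules rose in CD9+ macrophages. Epx, the eosinophil peroxidase, rose from 145 to 2433 CPM (adjusted p = 0.000172) and Mpo, myeloperoxidase, from 408 to 966 CPM (adjusted p = 0.0236), and on POD 14 Mpo was 6.71-fold higher than in CX3CR1+ macrophages. The summed CPM of 9 eosinophil markers, Epx among them, was 663 to 675 in the CD9+ libraries of POD 1 and 7233 to 11742 in those of POD 14, against at most 131 in every other library. Epx also rose in F4/80- cells, from 1.35 to 21.0 CPM, and in neutrophils, from 0.386 to 7.51 CPM. The part of eosinophil transcripts in CD9+ macrophages was not tested for Ncf1, the other members or pathway genes such as Prkca and Hvcn1. Of the remaining marker lists, basophil and mast cell markers summed to 686 to 1189 CPM in F4/80- cells and at most 228 CPM elsewhere, and markers of dendritic cells, lymphocytes, platelets and erythroid cells, and stroma to at most 227 CPM in any library.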

How the data were processed

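Reads of stranded SMART-Seq libraries were aligned to mm10 with STAR, counted over Gencode exons and deposited by the authors as raw counts per gene. Counts were used as deposited. Genes with a group mean of at least 3 CPM in at least 1 of 8 groups were kept, TMM factors were computed from them, and edgeR 4.0.16 in R 4.3.3 fitted one mean per group to all 16 libraries (8 residual degrees of freedom). Each log2 fold change carries an SE derived from its F statistic. DESeq2 1.42.0, other scalings and filters, a replicate block and the omission of each library were alternatives. Lengths of principal transcripts came from Gencode M21, matched for 20193 of 20200 genes, and promoters from RefSeq. The 5 members, 5 pathway lists and 9 marker lists were chosen with earlier results of these data known. The members were named in every comparison, the 3 genes most like each by Pearson's r, and up to 2 higher and 2 lower DEGs per pathway list in 8 comparisons, while genes of the marker lists were named after their values were seen. Some of the genes chosen by this rule are not reported here. The fit was tested on simulated data. Interval estimates cover the spread between pools only.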

Additional observations from a re-analysis of the deposited data

How the results depend on the processing

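With 2 pools a group, calls near 2-fold turned on the scaling, the filter and single libraries, as given with the results. The replicate block (replicate number within each day) left all 110 comparisons of a member on the same side of the criteria, with 12 and 16 of 30 between populations on POD 1 and POD 14. Shares of all genes for each pair of populations are given with the results. The populations of a day shared mice, but no source used here says that a replicate number names 1 pool. The correlations of deviations of same-numbered libraries over 12 pairs of groups were 0.01 to 0.14, and 3 of 12 exceeded 0.1. Scaling by library size moved 30 of 40 group mean CPM by more than 1 SD. With adjusted p alone, 2 of 20 member comparisons over time passed, each of them for Cybb, and 21 of 30 between populations passed on POD 1. Without 1 library at a time the counts were 0 to 1 of 20 over time, 8 to 15 of 30 on POD 1, 14 to 16 of 30 on POD 14 and 0 to 1 of 30 for a different change over time.

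The signs that turned belonged to comparisons that had not passed. The change of Rac2 over time in CD9+ macrophages minus that in neutrophils (0.01) was -0.022 with DESeq2, -0.022 with its size factors, -0.026 without a filter, -0.023 with filterByExpr and -0.038 with only the compared groups. With library size scaling, Cyba over time in CD9+ macrophages was 0.17, Rac2 over time in CX3CR1+ macrophages -0.012, Cyba in CD9+ against CX3CR1+ macrophages on POD 1 -0.012, Cybb in F4/80- cells against neutrophils on POD 1 0.22, and the change of Ncf4 in CD9+ macrophages minus that in F4/80- cells 0.072. With upper quartile scaling the Cyba and Rac2 changes over time were 0.028 and -0.012. With a filter in every group, Rac2 over time was -0.047 in CX3CR1+ macrophages and -0.0063 in F4/80- cells, Ncf4 over time in neutrophils -0.0048 and Cybb in CX3CR1+ macrophages against F4/80- cells on POD 14 -0.016. With only the compared groups, Rac2 over time in CX3CR1+ macrophages was -0.0061.

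Without 1 library at a time, changes over time ranged from -0.13 to 0.10 for Cyba in CD9+ macrophages, -0.029 to 0.065 for Rac2 in CX3CR1+ macrophages, -0.010 to 0.12 for Rac2 in F4/80- cells and, in neutrophils, -0.013 to 0.62 for Cyba, -0.011 to 0.33 for Ncf1 and -0.063 to 0.19 for Ncf4. CD9+ against CX3CR1+ macrophages on POD 1 ranged from -0.61 to 0.0021 for Cybb and -0.016 to 0.46 for Rac2. Differences in change over time ranged, for CD9+ minus CX3CR1+ macrophages, from -0.58 to 0.038 (Cybb), -0.028 to 0.20 (Cyba) and -0.13 to 0.35 (Ncf4), and for CD9+ macrophages minus F4/80- cells from -0.0099 to 0.61 (Cybb) and -0.35 to 0.14 (Ncf4). They ranged from -0.26 to 0.27 for Rac2 in CD9+ macrophages minus neutrophils, -0.10 to 0.028 for Rac2 in CX3CR1+ macrophages minus F4/80- cells, -0.49 to 0.15 for Cybb in CX3CR1+ macrophages minus neutrophils and -0.24 to 0.39 for Cyba in F4/80- cells minus neutrophils. The cause was not tested in any of these cases.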
